A study of Danio rerio with 6 samples.

Results

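The day-night change of transcripts in the pineal gland was set against that in the eye of the same zebrafish line. For each gene the night minus day difference in the eye was subtracted from that in the pineal gland, on the log2(FPKM + 1) scale (FPKM is the number of fragments relative to the gene's length and the library's total; 1 was added so that values of 0 could be used). A positive difference means that the night value stood higher relative to the day value in the pineal gland than in the eye. Genes entered if the higher library of each organ had at least 5 FPKM. This left 10334 of 32105 genes. Another 1419 genes passed the limit in the pineal gland only and 2401 in the eye only, and these were left out.

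The pineal pools held 18 glands and the eye pools 6 whole eyes, collected at mid-night (ZT18) and at mid-day (ZT6) in a cycle of 12 h light and 12 h dark, where ZT counts hours from lights on. All fish were adults of 0.5 to 1.5 years that carried Tg(aanat2:EGFP), a transgene in which regulatory DNA of aanat2 drives enhanced green fluorescent protein, so that the gland could be seen for dissection. Night and day pools of mixed organs (equal RNA amounts from 4 to 8 pieces each of brain, gill, heart, intestines, kidney, liver, muscle and ovary) served as a further tissue. Each organ and time was 1 library of pooled tissue, without a repeat, so the difference between organs has no replicate check and genes are described by size. Depth was 7949224 reads for pineal night, 11045259 for pineal day, 13418642 for eye night and 15016838 for eye day, with 15950819 for mixed night and 15708307 for mixed day. Ratios are given with 95% intervals from the recovered reads, which cover counting error only. A whole eye also holds lens, cornea, pigment epithelium and inner retina. In such bulk tissue fewer cells of a type and less RNA per cell cannot be told apart.

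The zebrafish pineal gland and retina both contain photoreceptor cells and both hold a molecular clock that light can set directly. In the clock, CLOCK and BMAL proteins activate period, cryptochrome and nr1d genes, whose products repress them in turn. The pineal gland makes melatonin at night, with the acetyltransferase aanat2 setting the rhythm, and the retina also makes melatonin. The levels of aanat2 and of lens genes fit the organ labels. aanat2 stood at 1922 FPKM at night and 491 by day in the pineal gland, against 254 at night and 160.2 by day in the eye. The summed FPKM of 65 lens genes was 35.2 at night and 37.0 by day in the pineal gland, against 8374 at night and 15626 by day in the eye. Brain markers were uneven between the eye pools: 55 of them summed to 2234 FPKM at night and 557 by day.

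A difference of at least 2-fold (1 on the log2 scale) was found for 1131 of the 10334 genes (10.9%). It was positive in 505 (4.89%) and negative in 626 (6.06%). The eye had the larger change in 721 of the 1131 and the pineal gland in 410, and the changes had opposite signs in 819. Opposite signs add to the difference, so choosing genes by its size favours them. Changes of at least 2-fold in opposite directions were found in 16 and 7 genes, described below. Within the pineal gland 508 genes (4.92%) differed at least 2-fold between night and day, 222 with the higher value at night (2.15%) and 286 with the lower (2.77%). Within the eye there were 833 such genes (8.06%), 417 with the higher value at night (4.04%) and 416 with the lower (4.03%). The mixed organs had 118 (1.14%), 21 higher (0.203%) and 97 lower (0.939%). Across genes the 2 changes had a Pearson correlation of 0.33 and a Spearman correlation of 0.20 over 10334 genes, which share the same 4 libraries and are not independent. The counting interval of the ratio of ratios (the pineal night/day ratio over the eye night/day ratio) left 1 out for 1119 of the 1131 genes and lay wholly past 2-fold for 710. It also left 1 out for 5244 genes that differed less than 2-fold. How many genes would differ as much between repeat pools of 1 organ and time is not known from these libraries. In simulated data, unchanged genes passed 2-fold about as often as the real genes did, at a spread between pools that was assumed. Close to the limit, within 0.1 on the log2 scale, lay 234 genes inside and 278 outside.

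A fit of the difference with a residual used all 6 libraries in limma, with the mixed organs given the mean time effect of the pineal gland and the eye. It had 1 residual degree of freedom, which measures how far the mixed organs departed from that mean and is not a replicate. It called 0 of 10334 genes (0%) at an adjusted p under 0.05, with 1092 genes at an unadjusted p under 0.05 and a smallest adjusted p of 0.355. With the mixed organs given the time effect of the eye instead, limma also called 0 genes, with 463 at an unadjusted p under 0.05 and a smallest adjusted p of 0.574. No other tool was run on this difference. The median difference over all genes was -0.14, made of a median of -0.04 in the pineal gland and 0.09 in the eye. The difference was positive in 3945 genes and negative in 6389. In 9079 genes the organs differed by less than 2-fold and did not both change 2-fold the same way. Among these, night was above day for 4138 and below it for 4941 in the pineal gland, against 5505 above and 3574 below in the eye. When each organ was centred on its own median, 652 genes (60.3%) stood higher and 430 lower, in place of 505 (44.7%) and 626. Quantile normalization gave 616 (54.9%) higher and 507 lower. Which sign was the commoner thus depended on the scaling. The summed lens markers of the eye were lower at night than by day, and the part of this in the FPKM of other eye genes was not tested.

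**Figure D1:**
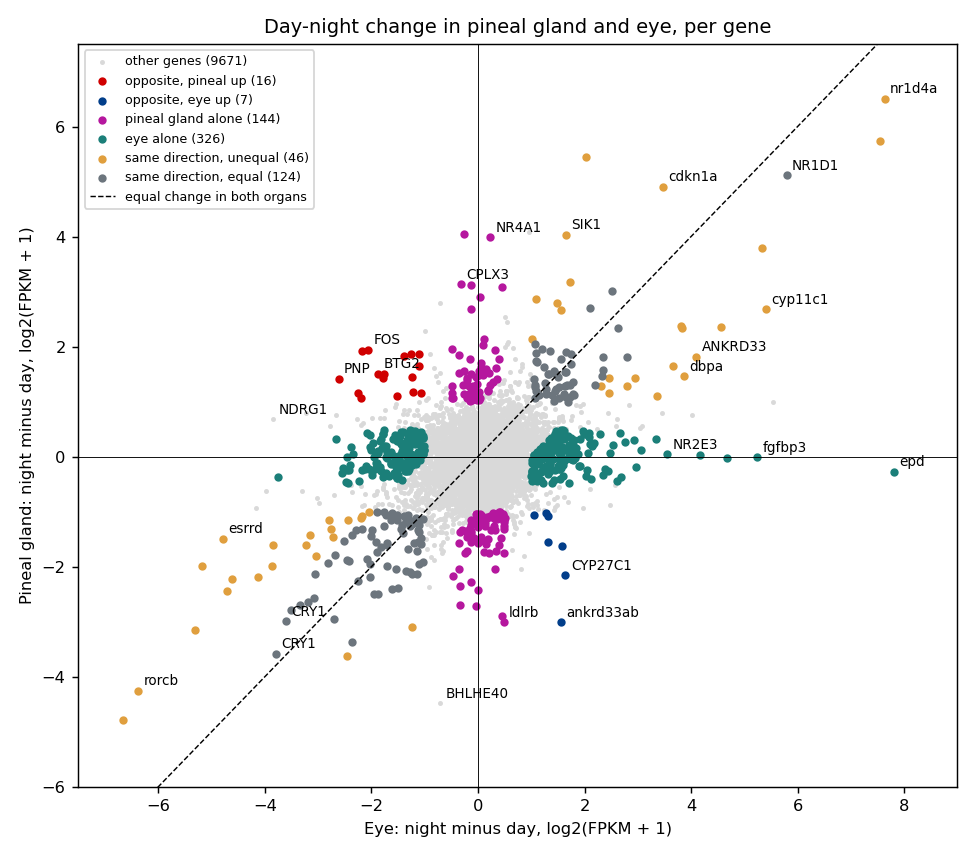
Night minus day change of 10334 genes on the log2(FPKM + 1) scale, with the eye on the horizontal and the pineal gland on the vertical axis, 1 library per organ and time. Colours mark 16 and 7 genes changed in opposite directions, 144 changed in the pineal gland alone, 326 in the eye alone and 46 and 124 changed the same way by unequal or near equal amounts; grey holds all other genes, including 592 that differed at least 2-fold without meeting any of these definitions.

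Genes that changed at least 2-fold in opposite directions were few. In 16 genes night exceeded day in the pineal gland while the eye showed the reverse, and in 7 the signs were the other way round. The 16 include FOS family subunits of the AP-1 transcription factor, which neurons and many other cells make within minutes of stimulation. FOS (ENSDARG00000031683) had 23.2 FPKM at night and 5.28 by day in the pineal gland, against 57.8 at night and 243 by day in the eye. Its pineal night value was thus above the pineal day value, while its eye night value was below the eye day value. The night/day ratio of FOS was 4.39 (3.49 to 5.56) in the pineal gland and 0.237 (0.224 to 0.252) in the eye, and the ratio of ratios was 18.5 (14.6 to 23.4). Its family member FOSB (ENSDARG00000055751) had 6.71 FPKM at night and 2.45 by day in the pineal gland, against 9.59 at night and 49.1 by day in the eye. BTG2 (ENSDARG00000020298), an antiproliferative early-response gene, had 66.7 FPKM at night and 22.8 by day in the pineal gland, against 43.2 at night and 162 by day in the eye. On the log2 scale the pineal minus eye difference was 4.00 for FOS, 3.40 for FOSB and 3.38 for BTG2.

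Not all of the 16 are early-response genes. hs3st3l (ENSDARG00000059903), whose family of sulfotransferases modifies heparan sulfate, had 30.2 FPKM at night and 7.25 by day in the pineal gland, against 25.3 at night and 118 by day in the eye, the largest difference of the 16 at 4.1 on the log2 scale. PNP (ENSDARG00000078619), named for purine nucleoside phosphorylase, had 13.7 FPKM at night and 4.5 by day in the pineal gland, against 5.79 at night and 40.6 by day in the eye. id2b (ENSDARG00000029544), an inhibitor of basic helix-loop-helix factors, was far more abundant in the pineal gland, with 242 FPKM at night and 84.5 by day in the pineal gland, against 8.55 at night and 31.3 by day in the eye. The night/day ratio of id2b was 2.87 (2.69 to 3.06) in the pineal gland and 0.273 (0.229 to 0.324) in the eye. In the mixed organs FOSB and PNP were lower at night, as in the eye, with 1.94 FPKM at night and 10.6 by day for FOSB and 12.3 at night and 34.9 by day for PNP. id2b followed the pineal direction there, with 10.6 FPKM at night and 4.74 by day. ppp1r3c2a (ENSDARG00000069377), named for a glycogen-targeting subunit of protein phosphatase 1, RHOBTB1 (ENSDARG00000079468) and fbxl3l (ENSDARG00000037738), an F-box gene, were also among the 16, at differences of 3.22, 3.21 and 3.12.

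**Figure D2:**
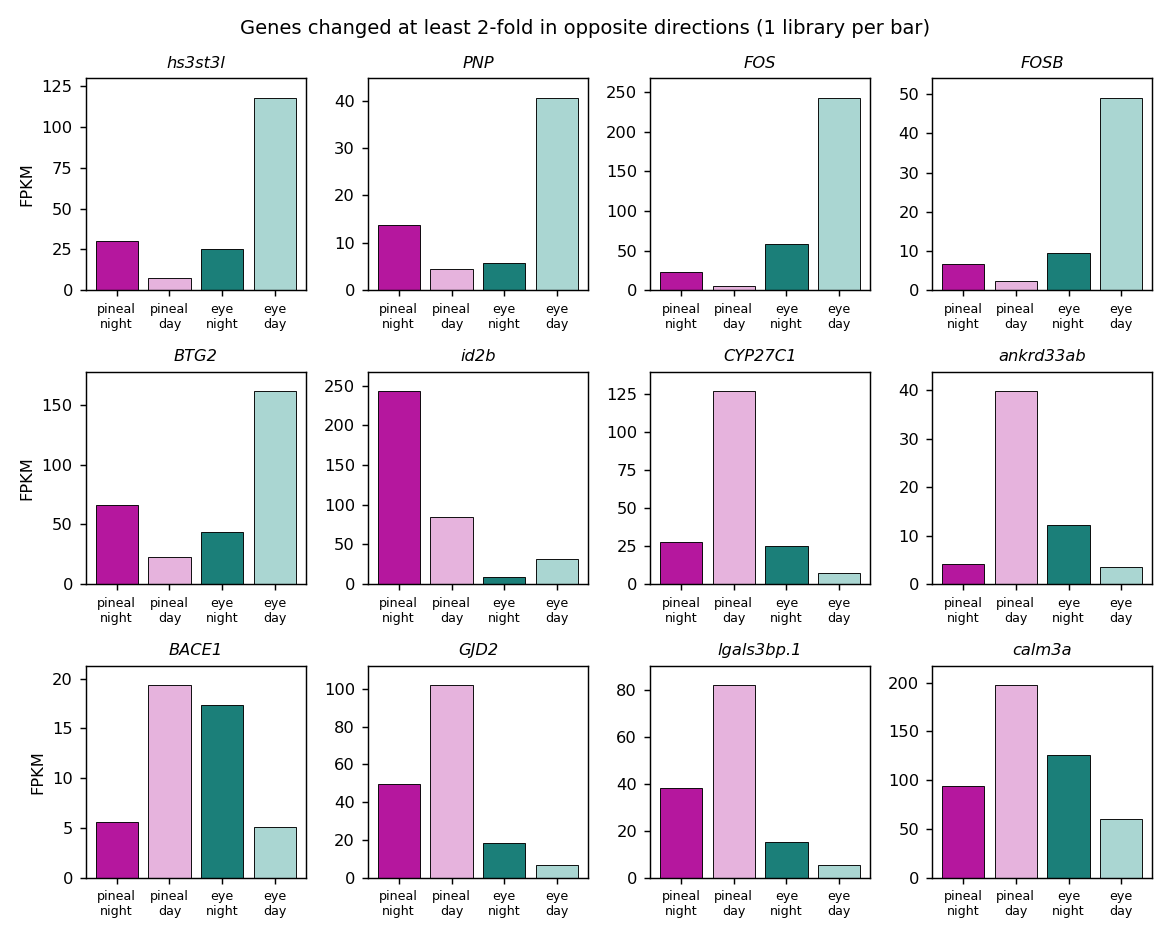
FPKM (vertical axis, from 0, scaled per gene) of 12 genes that changed at least 2-fold in opposite directions, 1 bar per library in the order pineal night, pineal day, eye night, eye day. In the first 6 genes, from hs3st3l to id2b, the pineal night bar exceeds the pineal day bar and the eye night bar is below the eye day bar; the other 6, from CYP27C1 to calm3a, show the reverse.

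The 7 genes with the reverse pattern include an enzyme of vitamin A metabolism. CYP27C1 (ENSDARG00000092660), which converts vitamin A1 to vitamin A2 in zebrafish pigment epithelium, had 27.6 FPKM at night and 127 by day in the pineal gland, against 25.3 at night and 7.41 by day in the eye. Its ratio was 0.218 (0.199 to 0.238) in the pineal gland and 3.41 (2.98 to 3.9) in the eye, and the mixed organs held under 1 FPKM in both libraries (0.741 at night and 0.68 by day). The most extreme of the 7 was ankrd33ab (ENSDARG00000002508), an ankyrin repeat gene, with 4.07 FPKM at night and 39.8 by day in the pineal gland, against 12.1 at night and 3.48 by day in the eye. GJD2 (ENSDARG00000067999), the connexin of electrical synapses, had 49.4 FPKM at night and 102 by day in the pineal gland, against 18.2 at night and 6.88 by day in the eye. BACE1 (ENSDARG00000101716), a protease that cuts the amyloid precursor protein, had 5.62 FPKM at night and 19.3 by day in the pineal gland, against 17.3 at night and 5.13 by day in the eye. The remaining named members were lgals3bp.1 (ENSDARG00000040528) at a difference of -2.39 and calm3a (ENSDARG00000100825), a calmodulin, at -2.11.

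Early-response genes as a list had mostly positive differences. This and the other gene lists were chosen with earlier results of these data known. Their shares set against all genes, here and below, are thus descriptions and not independent of the data. Of 33 members, 21 had a positive difference of at least 2-fold and 1 a negative one (66.7% differing, against 10.9% of all genes). The median was 1.48, against -0.14 over all genes. In 9 of the 33 the lower pineal library was under 5 FPKM, and in 2 the lower eye library. These met the limit in that organ through their higher library alone, so the share depends in part on the filter. The list moved in both organs, in opposite ways. In the pineal gland 16 members exceeded their day value by 2-fold at night and 1 fell below it by as much. In the eye 3 exceeded it and 13 fell below it. Over all genes 2.15% exceeded it and 2.77% fell below it in the pineal gland, against 4.04% and 4.03% in the eye. Among all 46 listed genes, also those under 5 FPKM, night exceeded day for 35 in the pineal gland and was below it for 10, against 17 above and 28 below in the eye. The median of the list above that of all genes lay between 1.29 and 1.92 in 10 settings of scaling, filter and pseudocount.

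Some of these genes changed at least 2-fold in the pineal gland and less than 2-fold in the eye. NR4A1 (ENSDARG00000000796), an orphan nuclear receptor induced by cyclic AMP and calcium, had 56.9 FPKM at night and 2.66 by day in the pineal gland, against 19.9 at night and 16.9 by day in the eye. SIK2 (ENSDARG00000079618), a salt-inducible kinase, had 40.6 FPKM at night and 1.53 by day in the pineal gland, against 12.9 at night and 15.5 by day in the eye. In both genes the pineal night library was the highest of the 4 and the pineal day library the lowest, while the eye libraries lay close together. The night/day ratio of SIK2 was 26.6 (20.6 to 34.8) in the pineal gland and 0.828 (0.747 to 0.918) in the eye. DUSP1 (ENSDARG00000100515), a phosphatase that switches off MAP kinases, had 190.0 FPKM at night and 26.5 by day in the pineal gland, against 76.9 at night and 127 by day in the eye. The related kinase SIK1 (ENSDARG00000058606), which also responds to cyclic AMP, was higher at night in both organs, with 936 FPKM at night and 56.2 by day in the pineal gland, against 267 at night and 84.6 by day in the eye. Its ratio was 16.6 (16.1 to 17.2) in the pineal gland and 3.16 (3.07 to 3.25) in the eye, a difference of 2.39 on the log2 scale. A hairpin of a cyclic AMP-responsive microRNA, dre-mir-132-2 (ENSDARG00000090368), showed the same pattern, but its pineal day value rested on 1 read, and its pineal ratio had an interval of 17.4 to 4006.

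**Figure D3:**
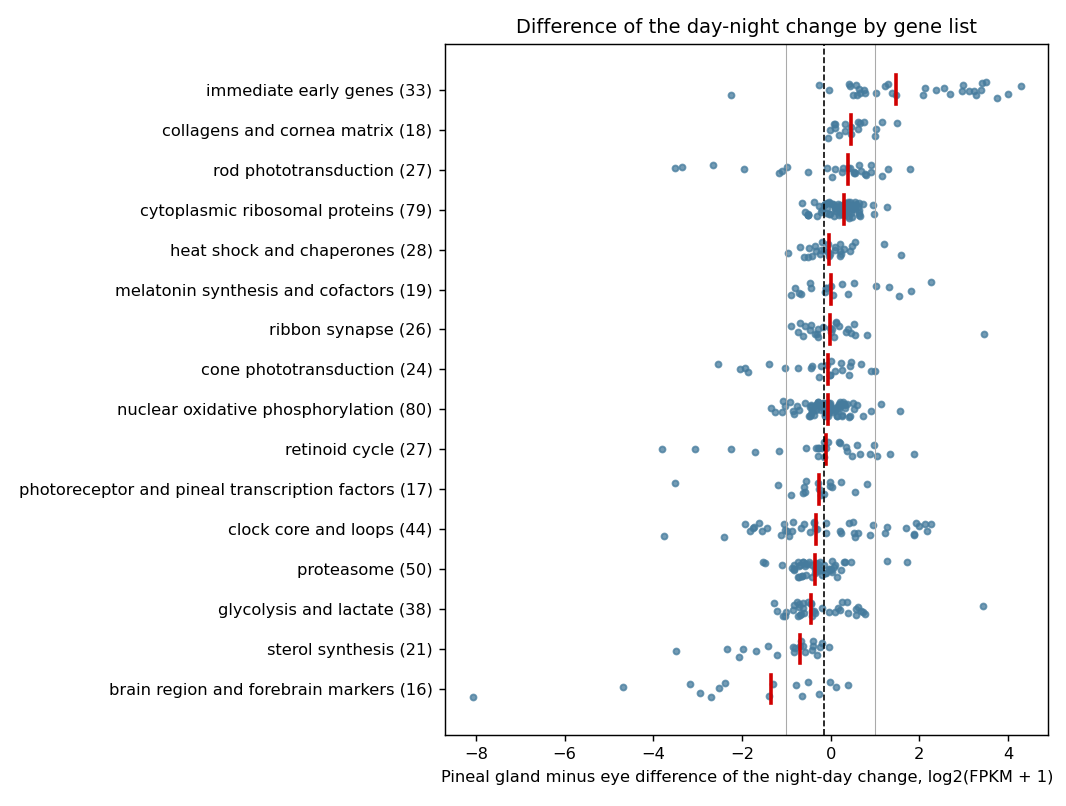
Pineal minus eye difference of the night minus day change (horizontal axis, log2 scale) for the members of 16 gene lists, with 1 point per gene, the number of members in brackets and a red line at each median. The dashed line is the median of all genes (-0.14) and thin lines mark 2-fold; immediate early genes lie to the right with a median of 1.48 and brain region markers to the left with a median of -1.35.

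Clock genes that changed at least 2-fold in both organs mostly changed more in the eye. Of 44 members of the clock list, 22 differed at least 2-fold (50.0%, against 10.9% of all genes), 10 with a positive and 12 with a negative difference. The list holds night-high and day-high genes, and its median was -0.33, against -0.14 over all genes. In 13 of the 44 the lower pineal library was under 5 FPKM, and in 12 the lower eye library. These met the limit in that organ through their higher library alone, so the share differing depends in part on the filter. Of the 44 members, 11 changed at least 2-fold in neither organ, 3 in the pineal gland only and 5 in the eye only. In 25 members the change was at least 2-fold the same way in both organs. It was larger in the eye in 22 of the 25 and larger in the pineal gland in 3, and larger by at least 2-fold in 14 and 0. The median size was 2.37 in the pineal gland and 3.79 in the eye. Of the other 145 genes that changed at least 2-fold the same way in both organs, the eye change was the larger in 89 and the pineal change in 56. With samples from ZT6 and ZT18 alone, the size of a rhythm and its timing cannot be told apart.

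Among night-high clock genes the nr1d repressors nr1d4a, nr1d4b and NR1D1 had the largest changes. Other nr1d genes changed less and in opposite directions in the 2 organs. nr1d2a (ENSDARG00000003820) changed by 0.99 in the pineal gland and -0.70 in the eye, a difference of 1.69. NR1D2 (ENSDARG00000009594) changed by -0.66 in the pineal gland and 0.39 in the eye, a difference of -1.05. nr1d4a (ENSDARG00000031161), of the REV-ERB family that represses bmal1, had 156 FPKM at night and 0.729 by day in the pineal gland, against 537 at night and 1.71 by day in the eye. nr1d4b (ENSDARG00000059370) had 86.8 FPKM at night and 0.656 by day in the pineal gland, against 357 at night and 0.911 by day in the eye, a difference of -1.82. Both pineal day values, and the eye day value of nr1d4b, were below 1 FPKM, where the added 1 shrinks a log2 change. The ratio of ratios of nr1d4a was 0.681 (0.388 to 1.2), so its counting interval did not leave 1 out. On the log2(FPKM + 1) scale its difference was -1.13, past the 2-fold limit, as the added 1 shrank its pineal change more than its eye change. NR1D1 (ENSDARG00000033160) had 119.6 FPKM at night and 2.48 by day in the pineal gland, against 298 at night and 4.39 by day in the eye. Its difference on that scale was -0.68, while its ratio of ratios, 0.712 (0.547 to 0.927), was near that of nr1d4a. The D-box activators dbpa (ENSDARG00000063014) and dbpb (ENSDARG00000057652) were night-high too, with differences of -2.40 and -1.54. dbpa had 30.7 FPKM at night and 10.5 by day in the pineal gland, against 147 at night and 9.17 by day in the eye. The organs differed in the night values of dbpa, while the day values were within 2 FPKM of each other. PER1 (ENSDARG00000056885), a period repressor, had 11.3 FPKM at night and 1.38 by day in the pineal gland, against 38.1 at night and 1.79 by day in the eye.

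Most day-high clock genes were lower at night by more in the eye, 13 of the 16 that changed at least 2-fold in both organs. PER2 (ENSDARG00000034503), the light-induced period gene, had 9.33 FPKM at night and 54.9 by day in the pineal gland, against 2.1 at night and 79.6 by day in the eye. The RORE activators rorca (ENSDARG00000057231) and rorcb (ENSDARG00000017780) had differences of 2.17 and 2.12, and rorcb had 3.3 FPKM at night and 81.1 by day in the pineal gland, against 0.877 at night and 155 by day in the eye. Among the D-box repressors, nfil3-5 (ENSDARG00000094965) had 2.9 FPKM at night and 106 by day in the pineal gland, against 2.36 at night and 337 by day in the eye, and nfil3-6 (ENSDARG00000087188) a difference of 1.93. The activator npas2 (ENSDARG00000016536) had 9.24 FPKM at night and 39.5 by day in the pineal gland, against 2.17 at night and 45.3 by day in the eye. The BMAL1 copies differed less: 1.23 for ENSDARG00000035732 and 0.89 for ENSDARG00000006791. Cryptochromes named CRY1 changed by almost the same amount in both organs, with differences of 0.21 for ENSDARG00000045768 and 0.61 for ENSDARG00000011583. NFIL3 (ENSDARG00000042977), cry4 (ENSDARG00000011890) and PER3 (ENSDARG00000010519) were the 3 genes with the larger change in the pineal gland, at pineal changes of -1.95, -1.92 and -1.68 and eye changes of -1.10, -1.04 and -1.31.

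**Figure D4:**
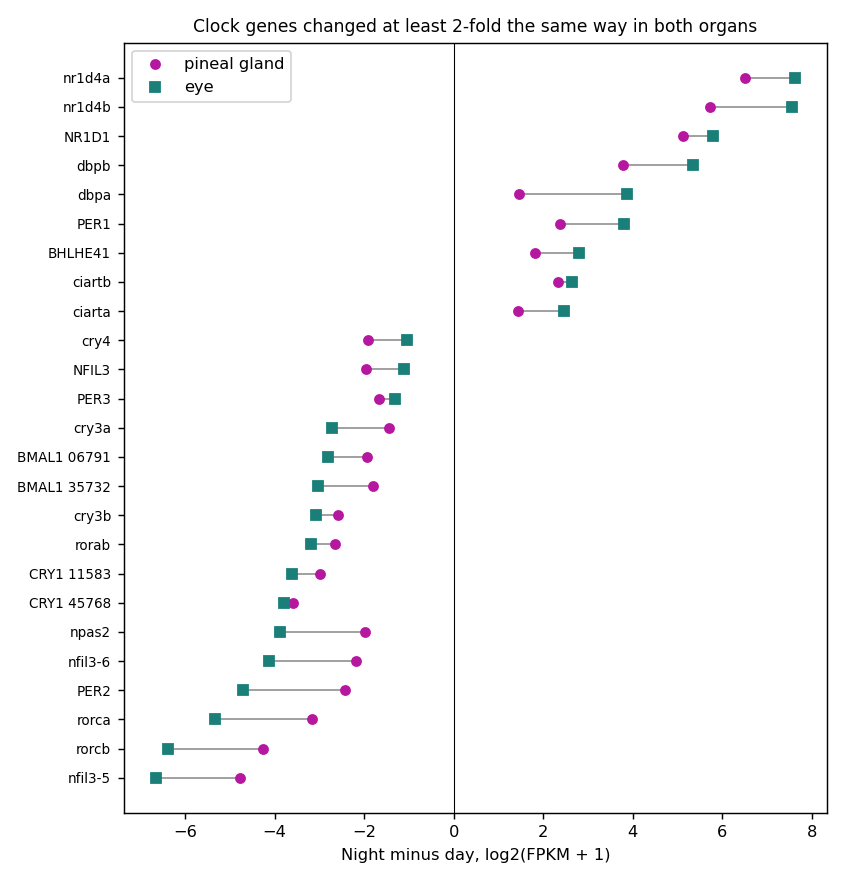
Night minus day change on the log2(FPKM + 1) scale (horizontal axis) of the 25 clock genes that changed at least 2-fold the same way in both organs, with circles for the pineal gland and squares for the eye; digits after a symbol are the last digits of the gene ID. The square lies farther from 0 than the circle in 22 of the 25 genes.

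Several clock genes changed at least 2-fold in 1 organ. BHLHE40 (ENSDARG00000004060), a repressor that binds E-boxes, had the strongest pineal change of the list without a 2-fold change in the eye, with 12.6 FPKM at night and 301 by day in the pineal gland, against 135 at night and 222 by day in the eye. Its ratio was 0.0417 (0.0369 to 0.047) in the pineal gland and 0.607 (0.586 to 0.628) in the eye. Its relative BHLHE41 (ENSDARG00000041691) was night-high in both organs instead, with 39.9 FPKM at night and 10.6 by day in the pineal gland, against 165 at night and 22.8 by day in the eye. Changes of at least 2-fold in the eye but not in the pineal gland were found in 5 clock genes. CRY2 (ENSDARG00000102403) had 19.4 FPKM at night and 25.0 by day in the pineal gland, against 56.0 at night and 17.9 by day in the eye. tefb (ENSDARG00000098103), a PAR bZIP activator, had 58.0 FPKM at night and 45.2 by day in the pineal gland, against 164 at night and 37.7 by day in the eye, and the second period gene named PER1, ENSDARG00000012499, had 8.06 FPKM at night and 9.61 by day in the pineal gland, against 21.8 at night and 6.9 by day in the eye. The pineal libraries of these 3 genes lay close together and the eye night library was the highest of the 4. tefa (ENSDARG00000039117), also among the 5, was night-high in the eye too, with 107 FPKM at night and 48.8 by day. HLF (ENSDARG00000061011), the last of the 5, was day-high in the eye, with 24.0 FPKM at night and 54.3 by day. Its pineal values were 72.5 at night and 40.1 by day, a difference of 1.99.

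Melatonin genes with a 2-fold difference were mostly night-high in the pineal gland. Of 19 members, 5 had a positive difference of at least 2-fold and 0 a negative one (26.3% differing, against 10.9% of all genes), while the median was 0.01. At night 7 exceeded their day value by 2-fold in the pineal gland and 1 fell short by as much, against 2 and 1 in the eye. Among all genes 2.15% exceeded it and 2.77% fell short in the pineal gland, against 4.04% and 4.03% in the eye. The night/day ratio of aanat2 (ENSDARG00000079802) was 3.92 (3.82 to 4.02) in the pineal gland and 1.59 (1.52 to 1.66) in the eye, a ratio of ratios of 2.47 (2.35 to 2.6). GCH1 (ENSDARG00000070453), which starts the synthesis of the tetrahydrobiopterin cofactor of tryptophan hydroxylase, had 978 FPKM at night and 333 by day in the pineal gland, against 5.56 at night and 6.85 by day in the eye. PCBD1 (ENSDARG00000031981), which regenerates that cofactor, had 121 FPKM at night and 59.1 by day in the pineal gland, against 6.36 at night and 6.42 by day in the eye. Both were flat in the eye, at levels far below those of the pineal gland. In contrast TPH1 (ENSDARG00000029432), a tryptophan hydroxylase, and DDC (ENSDARG00000016494), the decarboxylase of the next step, were night-high in both organs. TPH1 had 2290.1 FPKM at night and 743 by day in the pineal gland, against 40.5 at night and 16.7 by day in the eye, a difference of 0.39, and that of DDC was -0.45. gch2 (ENSDARG00000099101), a second GTP cyclohydrolase known from pigment cells, was day-high mainly in the eye, with 3.26 FPKM at night and 6.19 by day in the pineal gland, against 1.12 at night and 16.2 by day in the eye. ASMT (ENSDARG00000098249), which methylates N-acetylserotonin to melatonin, changed less than 2-fold in both organs, with a difference of -0.80. In contrast asmt2 (ENSDARG00000070874) was among the 5 with a positive difference, at 1.54. It had 20.8 FPKM at night and 9.34 by day in the pineal gland, against 13.5 at night and 19.0 by day in the eye.

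Sterol synthesis genes were mostly lower at night in the pineal gland and mostly slightly higher at night in the eye. The difference was negative in all 21 members, from -3.49 to -0.03, and at least 2-fold in 7 (33.3%, against 10.9% of all genes). Over all 10334 genes it was negative in 6389. The median was -0.70, against -0.14 over all genes. In 4 of the 21 the lower pineal library was under 5 FPKM, and in 2 the lower eye library. These met the limit in that organ through their higher library alone. By night 7 members stood 2-fold or more below day in the pineal gland and 0 above, while in the eye 0 changed 2-fold in either direction. Of all genes 2.77% stood as far below day in the pineal gland and 2.15% above, and 8.06% changed 2-fold in the eye. Over all 30 listed genes the night value was lower in 27 and higher in 3 in the pineal gland, against 9 lower and 21 higher in the eye. Higher night values in the eye were also the commoner ones in the 9079 genes described above, with 5505 higher and 3574 lower. ldlrb (ENSDARG00000026759), a receptor that takes up cholesterol-rich lipoprotein, had 1.53 FPKM at night and 19.4 by day in the pineal gland, against 8.55 at night and 5.85 by day in the eye. srebf2 (ENSDARG00000063438), the transcription factor that drives the pathway, had 6.2 FPKM at night and 28.6 by day in the pineal gland, against 28.4 at night and 22.7 by day in the eye, and SREBF1 (ENSDARG00000067607), its relative, had 9.06 FPKM at night and 28.4 by day in the pineal gland, against 25.0 at night and 27.3 by day in the eye. MVD (ENSDARG00000099336), a mevalonate pathway enzyme, had 2.97 FPKM at night and 12.0 by day in the pineal gland, against 8.4 at night and 6.39 by day in the eye. In these 4 genes the pineal day library was more than 3 times the pineal night library, while the eye libraries differed by less than 2-fold. Of 12 fatty acid synthesis genes 1 differed at least 2-fold: ACLY (ENSDARG00000099079), which supplies acetyl-CoA to both pathways, had 27.2 FPKM at night and 65.7 by day in the pineal gland, against 33.5 at night and 36.9 by day in the eye.

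Several cone phototransduction genes were higher at night in the eye, although the summed FPKM of 35 cone genes was 7304 at night and 6864 by day in the pineal gland, against 11310 at night and 11992 by day in the eye. Of 24 members of the cone list, 6 had a negative and 0 a positive difference of at least 2-fold (25.0%, against 10.9% of all genes). In the eye 8 were at least 2-fold higher at night, against 1 in the pineal gland. Over all genes these shares were 4.04% in the eye and 2.15% in the pineal gland. The list as a whole was not night-high in the eye: of 35 listed genes night was above day for 16 and below it for 19. Its median difference was -0.05, against -0.14 over all genes, with 10 positive and 14 negative. The channel subunit CNGA3 (ENSDARG00000070726) had 356 FPKM at night and 474 by day in the pineal gland, against 145 at night and 32.5 by day in the eye. A second gene of that name, ENSDARG00000012297, had 22.5 FPKM at night and 13.5 by day in the pineal gland, against 110.1 at night and 17.1 by day in the eye, and the partner subunit cngb3.1 (ENSDARG00000101225) had 122 FPKM at night and 82.7 by day in the pineal gland, against 152 at night and 24.4 by day in the eye. In these 3 channel genes the eye night library was more than 4 times the eye day library. GRK7 (ENSDARG00000020602), the kinase that shuts off cone opsins, had its lower pineal value at night and its lower eye value by day, with 261 FPKM at night and 473 by day in the pineal gland, against 218 at night and 107 by day in the eye. The other gene named GRK7, ENSDARG00000055534, was lower at night in both organs. It had 276 FPKM at night and 421 by day in the pineal gland, against 9.7 at night and 15.1 by day in the eye.

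The summed FPKM of 40 rod genes was 13244 at night and 11426 by day in the pineal gland, against 12176 at night and 14597 by day in the eye. Of 27 members of the rod list, 3 had a positive and 6 a negative difference of at least 2-fold (33.3%, against 10.9% of all genes). Differences of any size were positive in 18 and negative in 9, against 3945 and 6389 of all genes. Their median was 0.38, against -0.14 over all genes. NR2E3, guca1g and RGS9BP are among the rod genes with the largest differences and are on the negative side. guca1g (ENSDARG00000045737) had 2.41 FPKM at night and 5.30 by day in the pineal gland, against 13.8 at night and 1.65 by day in the eye. Its pineal values rested on 17 reads at night and 52 by day. NR2E3 (ENSDARG00000045904), a nuclear receptor of photoreceptors, had 221 FPKM at night and 214 by day in the pineal gland, against 350.0 at night and 28.9 by day in the eye. RGS9BP (ENSDARG00000086756), which anchors the complex that ends the light response, had 13.5 FPKM at night and 18.3 by day in the pineal gland, against 266 at night and 90.5 by day in the eye. Its namesake rgs9bp (ENSDARG00000009466) was lower at night in the eye, with 40.6 FPKM at night and 62.5 by day, at a difference of 0.52. Of 28 listed non-visual and pineal opsins only 7 passed the filter in both organs. Among these 7, 0 differed at least 2-fold, against 10.9% of all genes, and so few genes cannot be told apart from that share.

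In the retinoid cycle, which regenerates the light-sensitive form of vitamin A, 3 of 27 members had a positive and 5 a negative difference of at least 2-fold (29.6%, against 10.9% of all genes). Their median difference was -0.10, against -0.14 over all genes. In 3 of the 27 the lower pineal library was under 5 FPKM, and in 7 the lower eye library. These met the limit in that organ through their higher library alone. Most members with a 2-fold change were day-high, in either organ. The eye had 11 day-high and 4 night-high members, and the pineal gland 7 and 1. RPE65 and LRAT, described below, were among the 4. Over all genes 4.03% were day-high and 4.04% night-high by 2-fold in the eye, and 2.77% and 2.15% in the pineal gland. RPE65 (ENSDARG00000007480), the isomerase of the cycle, had 765 FPKM at night and 567 by day in the pineal gland, against 316 at night and 48.8 by day in the eye. LRAT (ENSDARG00000037278), which makes its substrate, had 323 FPKM at night and 419 by day in the pineal gland, against 17.7 at night and 1.89 by day in the eye. Both were abundant in the pineal gland at night and by day, and lowest in the eye by day. The mixed organs held under 1 FPKM of RPE65, LRAT and NR2E3 in both libraries. Going the other way, rlbp1b (ENSDARG00000045808), a carrier of retinal, had 184 FPKM at night and 209 by day in the pineal gland, against 40.5 at night and 119 by day in the eye.

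**Figure D5:**
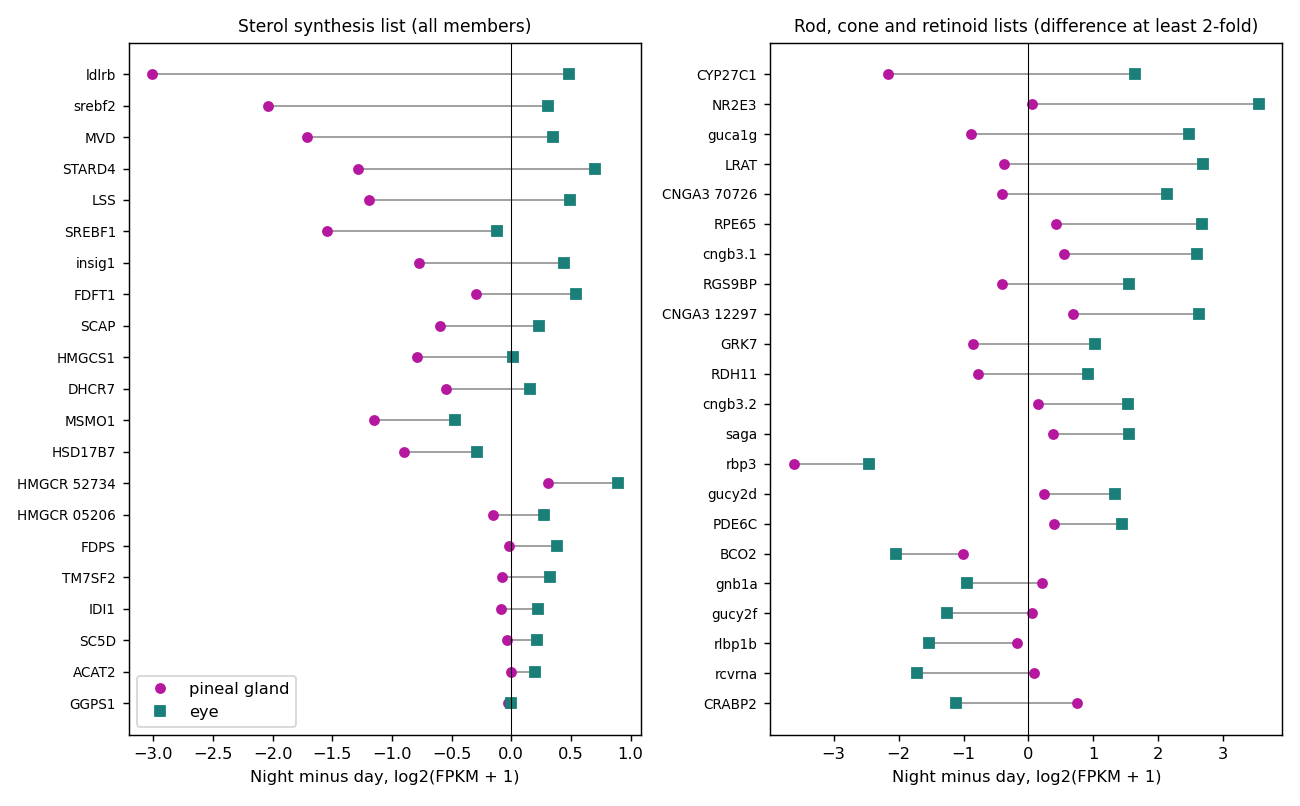
Night minus day change on the log2(FPKM + 1) scale (horizontal axis), with circles for the pineal gland and squares for the eye, of the 21 sterol synthesis genes (left) and of the rod, cone and retinoid genes that differed at least 2-fold (right, 1 gene left out). In the sterol panel every circle lies left of its square; in the right panel the genes from CYP27C1 to PDE6C have the square to the right of the circle and those from BCO2 to CRABP2 to its left.

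Several of the largest negative differences belonged to genes that were low in the eye by day. epd (ENSDARG00000103498), an ependymin secreted in fish brain, had 208 FPKM at night and 251 by day in the pineal gland, against 574 at night and 1.57 by day in the eye. fgfbp3 (ENSDARG00000040162), an FGF-binding protein, had 382 FPKM at night and 383 by day in the pineal gland, against 44.9 at night and 0.217 by day in the eye, and ZIC1 (ENSDARG00000015567), a transcription factor of the dorsal brain, had 25.4 FPKM at night and 25.7 by day in the pineal gland, against 65.0 at night and 1.59 by day in the eye. S100B (ENSDARG00000057598), a calcium-binding protein of glia, had 200.4 FPKM at night and 196 by day in the pineal gland, against 115 at night and 5.47 by day in the eye, and SLC1A3 (ENSDARG00000043148), a glial glutamate transporter, had 27.9 FPKM at night and 16.1 by day in the pineal gland, against 18.0 at night and 0.178 by day in the eye. In these 5 genes the eye day library was the lowest of the 4 and the eye night library more than 20 times higher.

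Markers of brain moved the same way, but the marker list itself holds epd and ZIC1, so it is not a separate set of genes. The summed FPKM of 55 brain region and forebrain markers was 935 at night and 904 by day in the pineal gland, against 2234 at night and 557 by day in the eye and 812 at night and 969 by day in the mixed organs. Of the eye sums, epd alone made up 574 at night and 1.57 by day. In the pineal gland 28 of the 55 were at 1 FPKM or more at night and 26 by day, with 7 at 0 in each library. In the eye 44 were at 1 FPKM or more at night and 28 by day, with 3 at 0 at night and 8 by day. In the pineal gland night was above day for 27 of the 55 and below it for 23, against 49 above and 3 below in the eye. Of 16 members of this list, 9 had a negative difference of at least 2-fold and 0 a positive one (56.2%, against 10.9% of all genes), at a median of -1.35. In 7 of the 16 the lower eye library was under 5 FPKM, so these met the limit in the eye through their higher library alone. The split of the 16 thus depends in part on the filter. The part of brain tissue in the eye night pool in these values was not tested. Without the 396 genes that were at least 4-fold higher in the mixed organs by day than in the eye by day, 1080 of 9938 genes (10.9%) differed at least 2-fold. This step cannot show the part of brain tissue, because the mixed pool held 8 organs. It left out 15 of the 177 genes that were higher at night in the eye alone (8.47%), a larger share than the 3.83% of all genes. The share was similar, 7 of 86 (8.14%), for genes that were lower at night in the pineal gland alone. The step and both classes use the eye day value, so these shares are not independent of it.

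The largest positive difference among the 10334 genes was that of NDRG1 (ENSDARG00000010420), which stress and low oxygen induce in human cells, with 162 FPKM at night and 101 by day in the pineal gland, against 42.3 at night and 621 by day in the eye. Its eye day library was the highest of the 4. PDK2 (ENSDARG00000059054), a kinase that restrains pyruvate dehydrogenase, had 25.9 FPKM at night and 14.9 by day in the pineal gland, against 1.83 at night and 17.0 by day in the eye, and SLC25A25 (ENSDARG00000010572), a mitochondrial carrier of ATP, had 6.68 FPKM at night and 3.46 by day in the pineal gland, against 4.07 at night and 46.5 by day in the eye. All 3 were lower at night in the eye and changed less than 2-fold in the pineal gland. CPLX3 (ENSDARG00000089486), a complexin of ribbon synapses, had 132 FPKM at night and 14.2 by day in the pineal gland, against 189 at night and 236 by day in the eye, and its change lay in the pineal gland. Among genes that changed the same way in both organs, esrrd (ENSDARG00000015064), an estrogen-related receptor, was day-high with 17.4 FPKM at night and 50.8 by day in the pineal gland, against 9.19 at night and 280.0 by day in the eye. cyp11c1 (ENSDARG00000042014), a steroid 11-beta-hydroxylase, was night-high with 21.7 FPKM at night and 2.54 by day in the pineal gland, against 72.8 at night and 0.749 by day in the eye, and ANKRD33 (ENSDARG00000055638), a photoreceptor repressor in mouse, with 12.7 FPKM at night and 2.87 by day in the pineal gland, against 230.1 at night and 12.5 by day in the eye. cdkn1a (ENSDARG00000076554), a cell cycle inhibitor, was night-high in both with near equal day values, at 129 FPKM at night and 3.34 by day in the pineal gland, against 47.0 at night and 3.33 by day in the eye.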

How the data were processed

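The authors deposited a table of FPKM values for 32105 genes in 6 libraries. The submitters' processing notes name STAR 2.3.0e, the danRer10 build, featureCounts of Subread, FastQC and DESeq2. The table's tissue means were left out. The annotation release, not given in the sources used here, sets the gene lengths. Symbols came from a table of gene IDs (26269 matched), and some are shared by several genes. Each gene's FPKM values were whole multiples of a step, taken as 1 read (27233 of 27233 genes, tolerance 0.02 reads). They may be reads or fragments. Clopper-Pearson intervals were used within an organ and log-scale normal intervals for ratios of ratios. The fit used limma 3.58.1 in R 4.3.3, two-sided with Benjamini-Hochberg adjustment, and was tested on simulated data. There unchanged genes passed 2-fold about as often as the real genes did, at the spread assumed between pools. The count of genes past 2-fold is therefore a description. Alone means at least 2-fold in 1 organ and under 0.5 on the log2 scale in the other. Members and the 27 gene lists were chosen with earlier results of these data known. Genes with a symbol and at least 10 FPKM were named by rank: the 12 highest and 12 lowest differences, up to 8 per pattern of change (6 where changes were equal; opposite genes ranked by the smaller of their changes), up to 4 per list, and any clock or melatonin gene. Not every gene picked by these ranks is described in the text. List entries without a matching symbol were left out. The values of 1 rod gene are not reported here. Alternatives changed pseudocount, filter and scaling.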

Additional observations from a re-analysis of the deposited data

Results flagged for a closer look

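The 15 genes below are the named ones among the 23 that changed at least 2-fold in opposite directions. They were chosen by the smaller of the changes in the 2 organs, and FOSB for its difference, so a gene with a larger difference than some listed here can be absent. With 1 library per organ and time, the difference between organs was not tested for any of them beyond the limma fit, which called 0 genes. Night exceeded day in the pineal gland and day exceeded night in the eye for hs3st3l at a pineal minus eye difference of 4.1 on the log2 scale, PNP at 4.03, FOS at 4.00, FOSB at 3.40, BTG2 at 3.38, id2b at 3.27, ppp1r3c2a at 3.22, RHOBTB1 at 3.21 and fbxl3l at 3.12. The pattern was reversed for ankrd33ab at -4.56, CYP27C1 at -3.80, BACE1 at -3.20, lgals3bp.1 at -2.39, GJD2 at -2.31 and calm3a at -2.11.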

How the results depend on the processing

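The count of 1131 genes differing at least 2-fold (505 higher, 626 lower, 23 in opposite directions) depended on the filter and the pseudocount. With 5 FPKM added it was 618 (319 higher, 299 lower, 12 opposite), of which 611 were among the 1131. With 0.1 FPKM added, 38 genes were opposite. A filter of 1 FPKM gave 1942 (856 higher, 1086 lower, 42 opposite), a filter of 10 FPKM 701 with 348 lower, and no filter 2619 (1182 higher, 1437 lower, 42 opposite). Scaling to TPM gave 2040 (834 higher, 1206 lower, 54 opposite), which was 14.2% of 14340 genes tested. Centring kept 935 of the 1131 and quantile normalization 988. limma called 0 genes in every setting run, with smallest adjusted p-values of 0.355 to 0.574. Differences of named genes moved by more than their counting interval in 134 cases and stayed within it in 1431, and none past 2-fold changed sign. The clock list's median relative to all genes lay between -0.27 and 0.03. No paired analysis was possible because each organ and time had 1 pool and the labels carry no replicate numbers. At 5 to 6 FPKM 12.3% of 946 genes differed at least 2-fold, against 10.9% of all genes.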

Other observations

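Ribosomal protein genes changed little per gene but in 1 direction in the eye. Of 85 listed genes night was below day for 45 and above it for 39 in the pineal gland, against 83 below and 1 above in the eye. Their median difference was 0.31 over 79 members, against -0.14 over all genes, and 1 member differed at least 2-fold. Proteasome subunit genes were lower at night in 50 of 58 cases and higher in 5 in the pineal gland, against 24 lower and 31 higher in the eye. In the 9079 genes described above, 4941 were lower and 4138 higher in the pineal gland, against 3574 lower and 5505 higher in the eye. Of 50 proteasome members 2 had a positive and 3 a negative difference of at least 2-fold (10%, against 10.9% of all genes). PSMB6 (ENSDARG00000002240), a catalytic core subunit, had 12.5 FPKM at night and 28.2 by day in the pineal gland, against 21.1 at night and 15.6 by day in the eye. The proteasome activator gene PSME4 (ENSDARG00000087911) had 5.33 FPKM at night and 16.0 by day in the pineal gland, against 4.36 at night and 46.6 by day in the eye.

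Aldolases of glycolysis were day-high in the pineal gland and flat in the eye. ALDOA (ENSDARG00000011665) had 105 FPKM at night and 226 by day in the pineal gland, against 200.2 at night and 187 by day in the eye, and ALDOC (ENSDARG00000019702) had 179 FPKM at night and 436 by day in the pineal gland, against 440.2 at night and 442 by day in the eye. The red blood cell gene alas2 (ENSDARG00000038643), which starts heme synthesis, had 13.5 FPKM at night and 39.3 by day in the pineal gland, against 6.99 at night and 7.75 by day in the eye. The summed FPKM of 17 erythrocyte markers was 196 at night and 371 by day in the pineal gland, against 136 at night and 233 by day in the eye. Of 18 collagen and cornea matrix genes 4 had a positive and 0 a negative difference of at least 2-fold (22.2%, against 10.9% of all genes), at a median of 0.45, against -0.14 over all genes. col6a1 (ENSDARG00000074908) had 10.9 FPKM at night and 8.39 by day in the pineal gland, against 15.1 at night and 34.8 by day in the eye.

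The other lists were small or had few members past 2-fold, and several had a share near that of all genes (10.9% differing, 4.89% positive and 6.06% negative). Oxidative phosphorylation genes differed in 8.75%, glycolysis genes in 13.2% and light-induced and DNA repair genes in 12.5%. Positive and negative differences of at least 2-fold numbered 2 and 0 of 28 heat shock and chaperone genes, 2 and 5 of 80 oxidative phosphorylation genes, 1 and 4 of 38 glycolysis genes, 1 and 0 of 26 ribbon synapse genes and 2 and 1 of 17 ion channel genes. They numbered 2 and 0 of 16 light-induced and DNA repair genes, 0 and 2 of 17 photoreceptor transcription factors, 2 and 1 of 9 cell cycle genes, 2 and 1 of 10 pigment epithelium genes and 1 and 2 of 17 inner retinal genes. Among markers with few members they were 2 and 0 of 2 lens genes, 0 and 1 of 5 erythrocyte genes, 0 and 0 of 4 leukocyte genes and 0 and 1 of 2 muscle genes.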
